A study of Mus musculus with 2 samples.

Results

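The genes described here are the laminin chains *Lama2*, *Lama4*, *Lama5*, *Lamb1*, *Lamb2* and *Lamc1*, the nidogens *Nid1* and *Nid2*, and the basement membrane proteoglycans *Hspg2* (perlecan) and *Agrn* (agrin). They were chosen by name as components of the basement membrane, and they are 10 of the 24532 genes in the count table. mRNA was sequenced from cardiac myofibroblasts that were taken from the hearts of C57BL/6J mice 3 days after myocardial infarction (MI) and cultured. The cells received 12.5 nM of a control siRNA (siCtrl) or of an siRNA against *Vgll3* (si*Vgll3*), a transcriptional cofactor of TEAD factors, and RNA was collected 72 h later. Both groups share the strain, the injury and the transfection, and differ in the siRNA. The comparison asks how basement membrane genes stand when *Vgll3* is reduced.

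Each condition has 1 library. No difference below therefore has a replicate check, the conditions were not tested against each other, and the 95% intervals cover counting error only and compare these 2 libraries. According to the methods, the myofibroblasts were the attached cells left after CD45-positive leukocytes were removed, a primary culture in which nearly every cell stained for αSMA, the protein of *Acta2*. The number of animals behind each library is not given in the sources used here. In such bulk RNA, fewer cells of a type and less RNA per cell cannot be told apart.

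A basement membrane is the thin sheet of matrix that lies under epithelia and endothelia and around each muscle, fat and nerve-sheath cell. Its laminins are trimers of an alpha, a beta and a gamma chain, which bind one another to form a network on the cell surface and are held there by integrins and dystroglycan. Nidogens and perlecan link that network to the network of collagen IV. In the heart, basement membranes surround cardiomyocytes and capillaries, and fibroblasts are among the cells that supply their components.

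Levels are given as TPM, which divides the reads of a gene by its length and by the depth of its library, so that levels can be compared between genes. The difference between libraries is M, the log2 ratio of the si*Vgll3* TPM to the siCtrl TPM, and A is the log2 of the mean of both TPM values. A gene was called lower with M < −0.5 and A > 0, and higher with M > 0.5 and A > 0, a rule of size and not a test. *Vgll3* itself had 42925 reads (202 TPM) in siCtrl and 16524 reads (84.0 TPM) in si*Vgll3*, which left 41.6% of its level. The siCtrl library held 140815237 reads on genes and the si*Vgll3* library 125789276.

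The cells were checked against marker genes of their own and other cell types. All 9 fibroblast and myofibroblast markers were present at A > 0, with a summed level of 16483 TPM in siCtrl and 13708 in si*Vgll3*. Of these 9, 4 were lower and 2 higher by the rule, and M ran from −1.22 for *Postn* to 0.72 for *Thy1*. For comparison with this and the other marker lists, 11.4% of all genes with A > 0 were lower and 5.73% higher. *Acta2*, the smooth muscle actin of myofibroblasts, was at 3296 and 3866 TPM. Of 8 cardiomyocyte markers, *Myh6*, *Actn2*, *Ryr2*, *Nppa* and *Ttn* had 0 reads in both libraries, and *Tnnt2*, at 60.0 and 10.4 TPM, was the only one with a TPM value. Of 9 leukocyte markers, *Ptprc*, *Adgre1*, *Itgam* and *Cd3e* had 0 reads, and the list, with 4 genes at A > 0, summed to 14.96 and 8.46 TPM. *Lyz2* made up most of that sum and was lower, at 10.9 and 3.13 TPM, while *Cd14* and *Csf1r* were higher, with M at 0.62 and 0.50, and the median M of the list was 0.21. Endothelial cells also make *Lama4*, *Lama5*, *Nid2* and *Hspg2*, and 5 of 10 endothelial markers had A > 0, with sums of 33.9 and 32.2 TPM over the list. Their values went in both directions, as *Tek*, the most abundant, had M at −0.54, *Cdh5*, *Pecam1* and *Egfl7* had M between 0.42 and 0.50, and the median M was 0.42. The 8 pericyte and smooth muscle markers, 2 of them at A > 0, summed to 111 and 112 TPM, most of it from *Mcam* at 94.9 and 102 TPM. *Notch3*, also at A > 0, was lower, at 14.1 and 7.97 TPM, with M at −0.82. The 6 Schwann cell markers, 1 of them at A > 0, summed to 2.49 and 1.83 TPM. The 6 mesothelial markers, all at A > 0, summed to 59.4 and 44.1 TPM, with 3 lower and 2 higher by the rule. *Tnnt2*, *Lyz2*, *Tek*, *Notch3* and 3 mesothelial markers were thus lower in si*Vgll3*, while *Cd14*, *Csf1r* and 2 mesothelial markers were higher. The part of other cell types in the differences of the genes below was not tested.

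All 10 basement membrane genes had A > 0, and 5 of them were lower in si*Vgll3*, *Lama4*, *Lama5*, *Lamb2*, *Lamc1* and *Nid2*. Among the 11754 genes with A > 0, 11.4% were lower by the same rule. None of the 10 was higher, while 5.73% of all tested genes were. Another 4 genes, *Lama2*, *Lamb1*, *Hspg2* and *Agrn*, had M below 0 but above −0.5, and *Nid1* alone had M above 0. The median M of the 10 genes was −0.58, and that of all tested genes was −0.05. An order-statistic interval of −0.76 to −0.32 for the median of the 10 describes the spread among these chosen genes. It covers neither counting error nor the spread between replicates. M was below 0 for 9 of the 10 genes and for 57.0% of all tested genes.

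**Figure D1:**
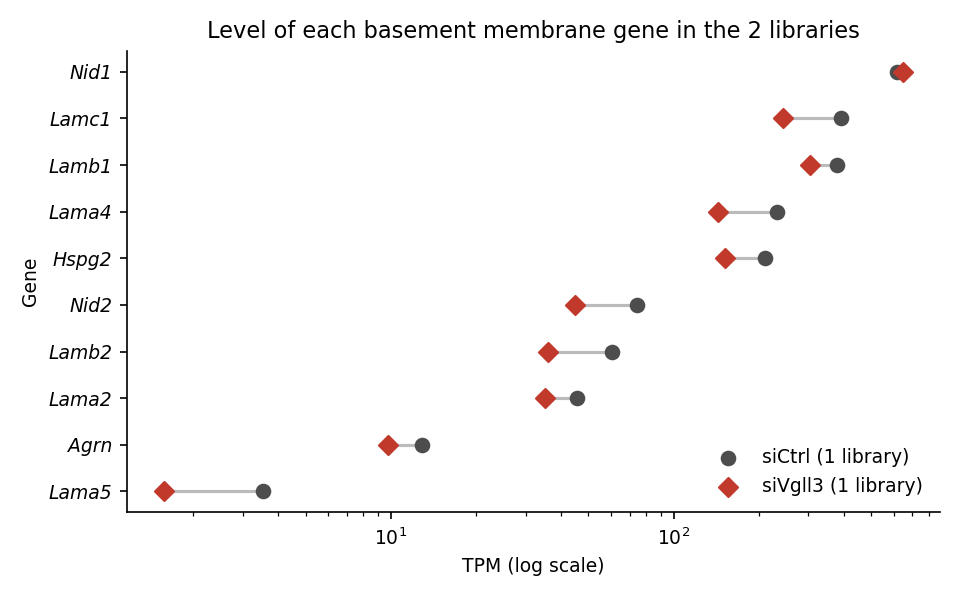
TPM of each of the 10 basement membrane genes (horizontal axis, log scale; 1 row per gene) in the siCtrl and si*Vgll3* libraries, 1 point per library. *Nid1* was at the top in both libraries, at 616 and 647 TPM, and *Lama5* at the bottom, at 3.54 and 1.57 TPM.

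The levels of the 10 genes covered a wide range. In siCtrl the order from the highest was *Nid1*, *Lamc1*, *Lamb1*, *Lama4*, *Hspg2*, *Nid2*, *Lamb2*, *Lama2*, *Agrn* and *Lama5*. In si*Vgll3* the order was kept except that *Lamb1* passed *Lamc1* and *Hspg2* passed *Lama4*. *Lamb2* and *Lama2*, at 60.6 and 45.6 TPM in siCtrl, came to 35.9 and 35.0 TPM in si*Vgll3*. Ranked among the 14158 genes with TPM, *Nid1* stood at 246 in siCtrl and 236 in si*Vgll3*, *Lamc1* at 394 and 679, *Lama4* at 707 and 1167, and *Lama5* at 10160 and 11173. Together the 10 genes held 0.661% of all siCtrl reads and 0.535% of all si*Vgll3* reads.

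Of the laminin alpha chains, which carry the sites for cell receptors and set the character of each trimer, *Lama4* was the most abundant. *Lama4*, the alpha chain of vascular and mesenchymal basement membranes, had 89550 reads (232 TPM) in siCtrl and 51368 reads (144 TPM) in si*Vgll3*. Its M was −0.69 [−0.71, −0.67], and 62.0% of the siCtrl level was left. The gene spans chr10:38965515-39110188 on the plus strand of mm10, with 38 exons.

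*Lama2*, the alpha chain of the muscle basement membrane whose loss causes a congenital muscular dystrophy, had 28249 reads (45.6 TPM) and 20105 reads (35.0 TPM). Its M was −0.38 [−0.41, −0.35], which is above the limit of −0.5. *Lama2* is also on chromosome 10, at chr10:26980036-27619758 on the minus strand, where it covers 639723 bases, the longest span of the 10 genes. *Lama4* was lower than *Lama2* by a difference in M of −0.31 [−0.34, −0.28]. A difference in M between genes of the same libraries does not depend on how the libraries are scaled to each other.

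*Lama5*, an alpha chain of epithelial and mature vascular basement membranes, was the scarcest of the 10 genes. It had 2577 reads (3.54 TPM) in siCtrl and 1057 reads (1.57 TPM) in si*Vgll3*. Its M of −1.17 [−1.28, −1.07] was the lowest of the 10 genes, and 2.31% of all tested genes had a lower M. The difference in M from *Lama4* was −0.48 [−0.59, −0.38]. *Lama5* lies at chr2:180176373-180225859 on the minus strand. Its M was −0.82 when 1 TPM was added to both values.

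Both beta chains had lower values in si*Vgll3*, by unequal amounts. *Lamb1*, the widespread beta chain, had 139688 reads (379 TPM) and 103564 reads (303 TPM), with M at −0.32 [−0.33, −0.31]. *Lamb2*, the beta chain known from the neuromuscular junction and the glomerulus, had 21769 reads (60.6 TPM) and 11937 reads (35.9 TPM), with M at −0.76 [−0.79, −0.72]. Only *Lamb2* was past −0.5, and the difference in M between them was −0.44 [−0.47, −0.40]. *Lamb1* is at chr12:31265234-31329644 and *Lamb2* at chr9:108479736-108490530, both on the plus strand with 33 exons, although *Lamb2* covers 10795 bases and *Lamb1* 64411.

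*Lamc1*, the gamma chain of most laminin trimers, had 191105 reads (393 TPM) in siCtrl and 109928 reads (244 TPM) in si*Vgll3*. Its M was −0.69 [−0.70, −0.68], so that 62.2% of the level was left. *Lamc1* and *Lama4* had M values within counting error of each other, with a difference of −0.004 [−0.02, 0.01], and the ratio of *Lama4* to *Lamc1* was 0.591 in siCtrl and 0.589 in si*Vgll3*. *Lamb2* and *Nid2* were close to *Lamc1* as well, at differences of −0.07 [−0.10, −0.04] and −0.04 [−0.07, −0.008]. *Lamb1* was not, and the ratio of *Lamc1* to *Lamb1* was 1.04 in siCtrl and 0.805 in si*Vgll3*, a difference in M of −0.37 [−0.38, −0.35].

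**Figure D2:**
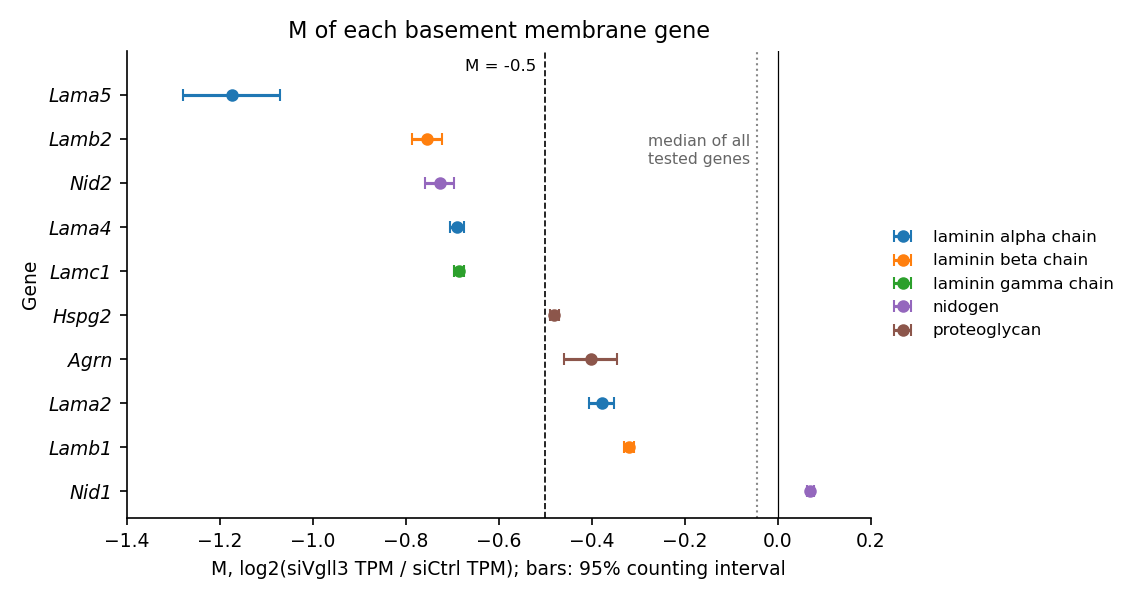
M of each of the 10 basement membrane genes (horizontal axis, log2 scale), with bars for the 95% counting interval and colours for the family. *Lama5*, *Lamb2*, *Nid2*, *Lama4* and *Lamc1* lie left of the dashed line at −0.5, and *Nid1* is the only gene right of 0.

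The nidogens, rod-shaped proteins that bind the laminin gamma chain and collagen IV, did not move together. *Nid1* had 237950 reads (616 TPM) in siCtrl and 231180 reads (647 TPM) in si*Vgll3*, with M at 0.07 [0.06, 0.08]. *Nid2* had 23093 reads (74.1 TPM) and 12914 reads (44.8 TPM), with M at −0.73 [−0.76, −0.70]. The difference in M between *Nid2* and *Nid1* was −0.80 [−0.83, −0.76]. *Nid1* was 8.32 times as high as *Nid2* in siCtrl and 14.5 times as high in si*Vgll3*. *Nid1* also parted from its laminin partner, since the ratio of *Nid1* to *Lamc1* was 1.57 in siCtrl and 2.65 in si*Vgll3*, a difference in M of 0.76 [0.74, 0.77]. *Nid1* lies at chr13:13437551-13512269 and *Nid2* at chr14:19751265-19811787, both on the plus strand.

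Of the 4876 exonic bases of *Nid2*, 437 at the 3′ end lie within the span of *Rtraf*, an RNA-binding protein gene on the opposite strand that is listed as 2700060E02Rik. *Rtraf* had 22605 and 22008 reads and an M of 0.07. The library kit keeps strand, but whether the counting used strand is not given in the sources used here, so some reads at that end could belong to either gene. *Nid2* was the only one of the 10 genes that overlapped another protein-coding gene.

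Of the proteoglycans, which carry heparan sulfate chains into the basement membrane, *Hspg2* had 191404 reads (211 TPM) in siCtrl and 126954 reads (152 TPM) in si*Vgll3*. Its M of −0.48 [−0.49, −0.47] lay just above −0.5, with the whole counting interval on that side. *Agrn*, best known for gathering acetylcholine receptors at the neuromuscular junction and a ligand of dystroglycan, had 6082 reads (12.9 TPM) and 4260 reads (9.77 TPM). Its M was −0.40 [−0.46, −0.35], and *Hspg2* and *Agrn* differed in M by −0.08 [−0.14, −0.02]. Both are on chromosome 4, *Hspg2* at chr4:137468769-137570630 on the plus strand with 97 exons and *Agrn* at chr4:156165290-156197488 on the minus strand. *Hspg2* was 0.912 times as high as *Lama4* in siCtrl and 1.05 times in si*Vgll3*.

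**Figure D3:**
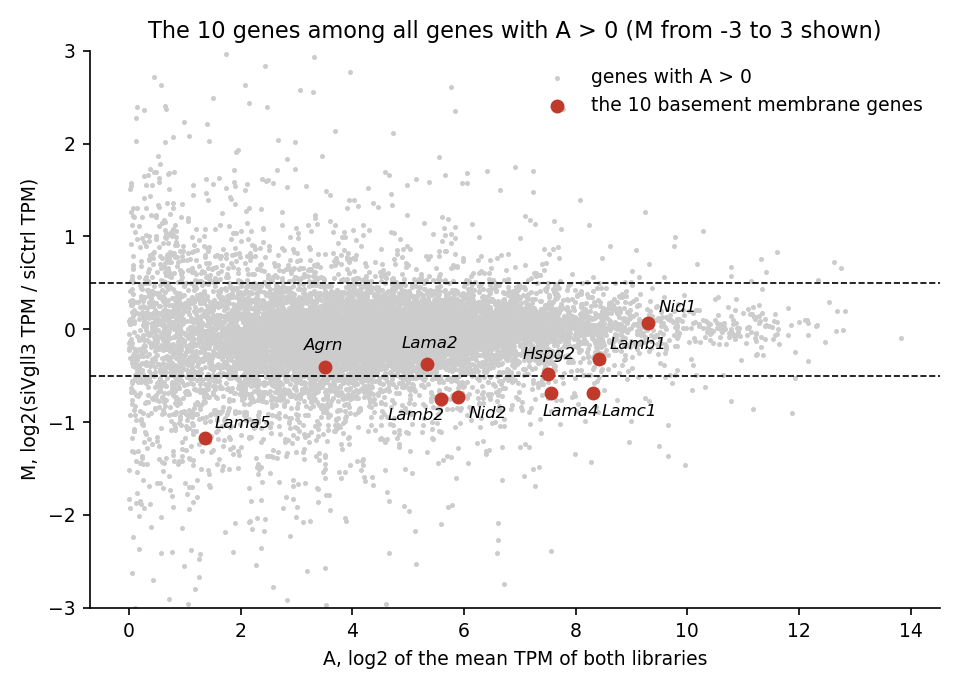
M (vertical axis) against A (horizontal axis), both on log2 scales, for all genes with A > 0 in grey and the 10 basement membrane genes in colour, with dashed lines at −0.5 and 0.5. The 5 lower genes range from the scarce *Lama5* to the abundant *Lamc1*, and 17 genes outside the vertical range are not drawn.

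Summed by chain, the alpha chains came to 281 TPM in siCtrl and 180 in si*Vgll3*, a log2 ratio of −0.64 [−0.65, −0.63]. The beta chains were at 439 and 339 TPM, a log2 ratio of −0.37 [−0.38, −0.36]. With the gamma chain *Lamc1*, the 6 laminin genes came to 1113 and 764 TPM, so that 68.6% of the summed laminin level was left. The nidogens came to 690 and 692 TPM, a log2 ratio of 0.003 [−0.005, 0.011], with *Nid1* as the larger part. The proteoglycans came to 224 and 161 TPM, with 71.9% left. The summed mRNA of the laminins was thus lower while that of the nidogens was the same within counting error on the TPM scale. From the counts alone the nidogens' log2 ratio was 0.05.

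**Figure D4:**
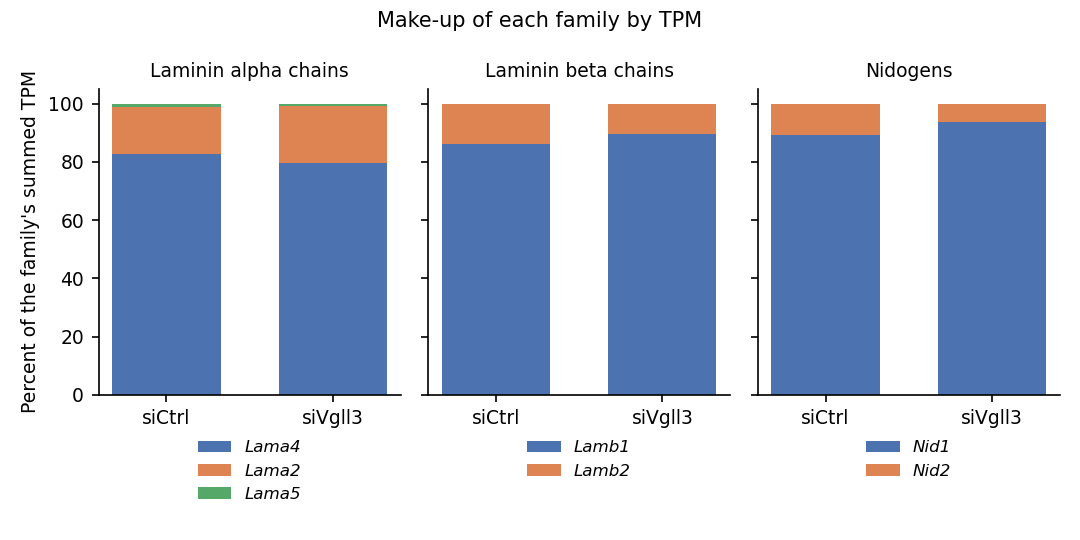
Share of each gene in the summed TPM of its family (vertical axis, percent) in the siCtrl and si*Vgll3* libraries, for alpha chains, beta chains and nidogens, as stacked bars. *Lama4*, *Lamb1* and *Nid1* hold most of each family in both libraries.

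Each family was led by the same gene in both libraries. *Lama4* made up 82.5% of the alpha chain TPM in siCtrl and 79.7% in si*Vgll3*, while the share of *Lama2* was 16.2% and 19.4%. *Lamb1* made up 86.2% and 89.4% of the beta chains, and *Nid1* 89.3% and 93.5% of the nidogens. The proteoglycan shares differed least, with *Hspg2* at 94.2% and 93.9%. In the beta chains and the nidogens the scarcer gene had the lower M, whereas *Agrn* was scarcer than *Hspg2* and had the higher M. The alpha chains went both ways, as *Lama2* was scarcer than *Lama4* with the higher M, and *Lama5* was the scarcest with the lowest M.

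Reads on 4 laminin chains outside the 10 genes were few. *Lama1*, the alpha chain of the early embryo, had 437 reads (0.718 TPM) in siCtrl and 73 reads (0.130 TPM) in si*Vgll3*. *Lama3*, an alpha chain of epithelial laminin, had 0 and 38 reads. Set against a floor of 3 reads in siCtrl, it was 14.2-fold higher in si*Vgll3* for its read total, a value that leaves out the counting error of the 38 reads. *Lamb3* had 6 and 10 reads, and *Lamc3* had 28 and 5. *Lama1* and *Lamc3* had A below 0, and *Lama3* and *Lamb3* have no value in the TPM tables.

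The promoters and 3′ UTRs of the 10 genes were searched for 2 short motifs. In promoters this was the TEAD-binding hexamer GGAATG or its reverse complement CATTCC, since VGLL3 binds TEAD factors. In 3′ UTRs it was the seed match of miR-29, a microRNA family known to target matrix genes. In the study, siRNA against *Tead1* left fibrotic genes of these cells unchanged, and *Vgll3* knockdown raised miR-29b and miR-29a. The mature miR-29 sequences from RefSeq (GRCm38.p6) are shown because they define the match, with the seed, bases 2 to 8, in capitals.
mmu-miR-29a-3p: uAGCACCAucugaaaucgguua
mmu-miR-29b-3p: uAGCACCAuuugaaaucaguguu
mmu-miR-29c-3p: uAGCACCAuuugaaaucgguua
All 3 share the seed AGCACCA, whose match in an mRNA is TGGTGCT. These mRNA libraries do not measure the level of miR-29.

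Of the 10 genes, *Lamc1* and *Agrn* held TGGTGCT in the 3′ UTR, once each. The sites are shown 5′ to 3′ on the gene's minus strand of mm10, with the match in capitals, *Lamc1* at chr1:153220057-153220086 and *Agrn* at chr4:156166321-156166350.
Lamc1: atctgacacacTGGTGCTattaattatttg
Agrn: gagacaaaaagTGGTGCTgagggactccta
The *Lamc1* match starts at base 1398 of a 3′ UTR of 2551 bases, and that of *Agrn* at base 157 of 718. Among tested genes with 3′ UTRs within 20% of these lengths, 24.8% of 1377 held the match for *Lamc1* and 8.13% of 1316 for *Agrn*. Over all 11273 tested genes with a 3′ UTR the share was 14.3%. The 3′ UTRs of *Lama4*, *Lama5* and *Lamb2* are short, at 155, 174 and 110 bases, and 3.39%, 3.54% and 0.974% of genes with UTRs like them held a match. Among the 5 lower genes only *Lamc1* thus held the match, and *Nid1*, with a 3′ UTR of 2202 bases, held none.

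RefSeq promoter windows, 250 bases before to 50 after a start, were matched for 7 of the 10 genes, with 8 windows in all. *Lama4*, *Lamc1* and *Nid2* had no window in the table. The hexamer was found in 1 of the 8 windows, that of *Nid1*, on the plus strand 165 bases before the RefSeq start. Over all 32851 windows, 14.7% held it on either strand. The *Nid1* stretch, chr13:13437352-13437550 on the plus strand of mm10, is shown with the hexamer in capitals because it is the only match in the 8 windows. Whether the hexamer bears on M was not tested.
Nid1: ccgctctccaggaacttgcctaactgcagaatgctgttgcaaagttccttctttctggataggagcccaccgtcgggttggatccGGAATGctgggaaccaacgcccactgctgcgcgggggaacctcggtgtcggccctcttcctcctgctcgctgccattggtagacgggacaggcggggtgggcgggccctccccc
Neither window of *Lama5* and *Lamb2*, the lower genes with a window, held these letters, which says nothing of sites outside the windows. Of the 8 windows, one of *Agrn* was the richest in G and C, at 83.3%, followed by those of *Lama5* and *Hspg2*, at 72.7% and 70.3%. That of *Lamb2* was the poorest, at 44.0%, and the median of all windows was 52.7%.

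The genes that work with these 10 were read from lists of pathway members. For comparison with the counts of each list, 11.4% of all tested genes were lower and 5.73% higher by the same rule. The basement membrane collagens are the partners that nidogens and perlecan reach, and 3 of 6 with A > 0 were lower and 0 higher, with a median M of −0.63. *Col4a1* and *Col4a2*, the chains of the common collagen IV trimer, had M of −0.39 and −0.24, close to *Lamb1*, while *Col4a6*, *Col18a1* and *Col15a1* were lower, at −0.87, −0.94 and −1.54.

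Of 11 other basement membrane components with A > 0, 5 were lower and 2 higher, with a median M of −0.28. *Pxdn*, peroxidasin, which crosslinks collagen IV, had 121 TPM in siCtrl and 47.7 in si*Vgll3*, with M at −1.35 [−1.37, −1.32]. *Smoc1*, a calcium-binding matrix protein, had M at −0.79, and *Frem1*, a scarce protein of embryonic basement membranes, −1.10. Higher in si*Vgll3* were *Npnt*, nephronectin, an integrin ligand, at 2.92 and 9.56 TPM, with M at 1.71 [1.60, 1.82], and *Tinagl1*, a laminin-binding protein, at 88.6 and 201 TPM, with M at 1.18 [1.15, 1.21]. *Sparc* and *Fbln2*, the most abundant of the list, had M of −0.28 and 0.22.

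Among 13 laminin and collagen IV receptors with A > 0, 5 were lower and 0 higher, and the median M was −0.17. *Dag1*, which encodes dystroglycan, the receptor for *Lama2*, *Hspg2* and *Agrn* products, had 200 TPM in siCtrl and 133 in si*Vgll3*, with M at −0.58 [−0.60, −0.57]. *Itga1*, a collagen IV and laminin receptor chain, had M at −0.88, *Bcam*, a receptor of the *Lama5* product, −0.59, *Sdc3*, a syndecan, −0.58, and *Lrp4*, the agrin receptor, −1.08. *Itgb1*, the beta chain shared by most laminin integrins and the most abundant of the list, was at 1101 and 1004 TPM, with M at −0.13.

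Dystroglycan binds laminin through a sugar chain that is built by a set of enzymes, and 0 of 13 of their genes were lower or higher, with a median M of −0.07. *Tmem5*, *Gmppb* and *Pomgnt1*, the most abundant, had M of 0.10, −0.31 and 0.08. Of 21 genes that build, trim or cut heparan sulfate, which is attached to perlecan and agrin, 3 were lower and 1 higher, with a median M of −0.09. Those counts are close to the shares of all tested genes, 11.4% lower and 5.73% higher. *Xylt1* and *Xylt2*, the enzymes that start the chain on the core protein, had M of −0.69 and −0.65, and *Sulf2*, which trims sulfate from it, −0.63. *Ext1* and *Ext2*, which extend the chain, had M of −0.08 and −0.36, and *Hpse*, heparanase, which cuts the chain, was higher at 0.65. Read side by side, the 10 genes and the collagens had medians past −0.5, and the other 4 lists had medians between −0.28 and −0.07.

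**Figure D5:**
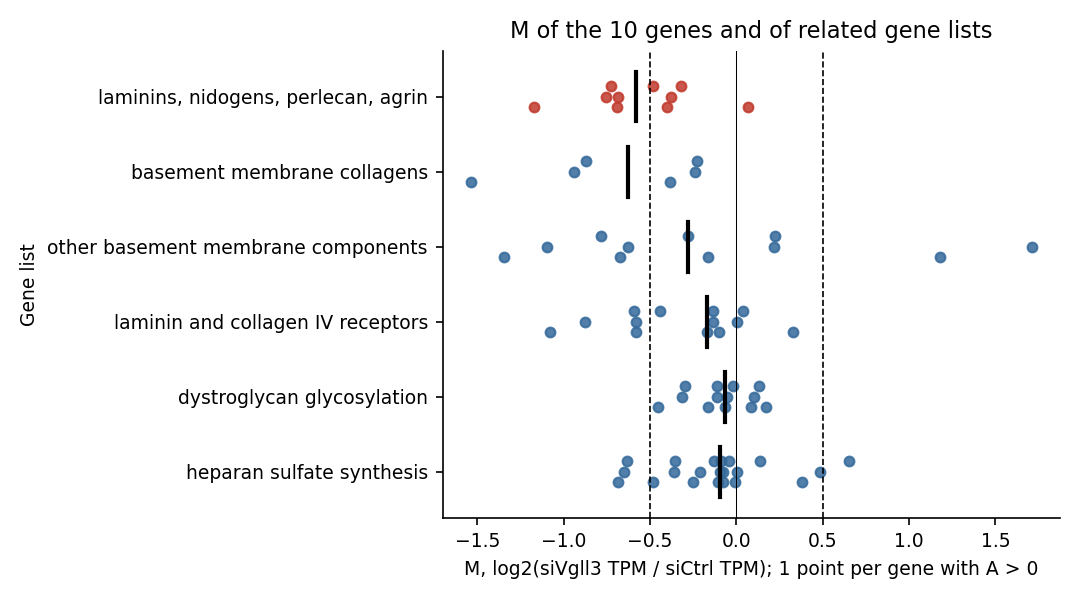
M (horizontal axis, log2 scale) of each gene with A > 0 in the 10 basement membrane genes and in 5 related lists, 1 point per gene, with a bar at each median and dashed lines at −0.5 and 0.5. The 10 genes have a median of −0.58, the collagens −0.63 and the dystroglycan enzymes −0.07.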

How the data were processed

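Libraries were made with the TruSeq Stranded mRNA LT kit and sequenced on an Illumina NovaSeq. The authors used Trimmomatic, HISAT2 with mm10 and StringTie, whose versions, annotation release and strand setting are not given in the sources used here. The deposited table of raw counts holds whole reads per gene, and the authors also deposited TPM per gene for each library. M and A were computed from TPM. The 95% counting intervals of M are Clopper-Pearson intervals of the count ratio, moved onto the ratio of TPM. Those of a difference in M and of summed TPM are normal approximations from the read counts. The interval of M, before the move onto TPM, was tried on simulated counts. Those counts had only the counting error that the interval assumes, so the trial says nothing of the spread between replicates. Widths of the interval of M for the 10 genes ran from 0.017 to 0.208. The interval of a median is the binomial order-statistic interval over genes, which are not replicates of a condition.

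With 1 library per group, edgeR 4.0.16 and DESeq2 1.42.0 under R 4.3.3 gave scaling factors only. Python 3.11.15, numpy 2.4.6, pandas 2.3.3, scipy 1.17.1 and matplotlib 3.10.9 were used for the rest. GENCODE vM21 (GRCm38, the same assembly as mm10) gave positions and 3′ UTRs. Promoter windows and mature microRNAs came from RefSeq.

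The genes described, the lists and the motifs were chosen with earlier results of these data known. Named genes were all 10, *Vgll3* and, from each related list that is not of markers, the 3 most abundant genes at A > 0 and up to 5 with the largest absolute M past 0.5. Laminin chains below that filter, *Rtraf* and single marker genes were named after their values were seen, and 2 genes of the lists are not reported here. Alternatives were CPM, TMM, DESeq2's size factors, 0.1 or 1 TPM added, A as the mean of log2 values, A > 2, no filter on A, at least 10 reads in each library, M centred on the median, a threshold of 1 on M, and whole intervals past 0.5.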

Additional observations from a re-analysis of the deposited data

How the results depend on the processing

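No paired analysis was possible because siCtrl and si*Vgll3* share 1 replicate number only. Of the 10 basement membrane genes, 5 were lower and 0 higher under every alternative except A > 2, with 4 lower since *Lama5* falls under that filter, and a threshold of 1 on M, with 1 lower, *Lama5*. The sign of M and its side of −0.5 were kept in 99 of 99 comparisons of these genes under 10 alternatives. Some of these comparisons could not differ. The other form of A and the filters on A or reads leave the M of a gene as it is, and adding TPM cannot change its sign. The median M lay between −0.58 and −0.48. A change of sign was looked for only in values past 0.5 in size, not in counts, and 0 of those were reversed. *Hspg2* lay between −0.48 and −0.43, so it was above −0.5 throughout. M from CPM was 0.05 higher than from TPM for each of the 10. TMM, DESeq2's size factors and centring also moved all 10 upward, each by a nearly constant amount. These settings thus tried only a small common shift. Over all tested genes, 1341 were lower and 674 higher, against 2103 and 1428 with no filter on A, 384 and 207 at a threshold of 1, and 1159 higher with at least 10 reads in each library, 393 higher at A > 2 and 442 higher with the whole interval past 0.5. Among the other laminin chains 0 were lower, but 1 with 1 TPM added or with at least 10 reads in each library, and 2 with no filter. Other basement membrane components had 8 lower with no filter or at least 10 reads. Heparan sulfate genes had 6 and 5 lower there, and 2 higher under CPM, TMM, DESeq2's size factors and centring, through *Hs6st1* at M 0.48 from TPM. At a threshold of 1, 1 collagen, 2 other components, 1 receptor and 0 heparan sulfate genes were lower. Counts limit *Lama5* most, with the widest interval, and the lack of replicates limits every value.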
